A study of Mus musculus with 25 samples.

Results

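Strong chromatin contacts that were missing from both contact lists of the Il2ra intron deletion are described here, with the genes at their ends. A contact was a pair of 1 kb bins of the mouse genome with its deposited contact count. Pairs were selected on these counts and listings: the same bins had to be listed in all 4 libraries of the upstream deletion and of wild type (WT), with a mean of at least 35 contacts over these 4, and in neither intron-deletion library. This left 495 pairs of the 22917 strong pairs (2.16%), which in turn were part of 39676 pairs listed in all 4 libraries and 121571 listed in any library. They are called missing pairs here, where missing means not listed and not a count of 0. Absence from the intron-deletion lists and the mean count chose the pairs, so both are given as a description and no test compares the intron deletion with the other genotypes.

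The cells were splenic CD8+ T cells of mice labelled C57BL/6J, stimulated for 2 days and then rested for 4 h. The protocol names IL-2 or antibodies to CD3 and CD28 as the stimulus, without saying which was used for these libraries. H3K27ac HiChIP counts sequenced ligation products between stretches of DNA that carry acetylated histone H3 lysine 27, a mark of active promoters and enhancers. The groups were the intron deletion (a CRISPR deletion in an intron of Il2ra) with IL-2 and its untreated control, the upstream deletion (a CRISPR deletion before the Il2ra gene) with IL-2 and control, and WT with IL-2 and control, each as 1 library. Strain, tissue, cell type and activation were shared by all of them, the mutant libraries carry the same strain label as WT, and the labels are silent on age, sex, number of animals, founder lines, the deleted coordinates and the dose and duration of the last IL-2 treatment. Of the missing pairs, 40 of 495 lay on chromosome 2, which holds Il2ra, and with 1 library per genotype and treatment the deletion, the founder line and its genetic background elsewhere, and the single library cannot be told apart. The names of the 6 deposited tables each carry the replicate number 2, and no other replicate is analysed here. The 6 libraries listed 38879 to 94922 pairs and 1314137 to 3596995 contacts, with the intron-deletion control the shallowest and WT with IL-2 the deepest. The intron-deletion library with IL-2, at 2709959 contacts, was deeper than both upstream-deletion libraries (2203507 with IL-2 and 1965388 in control). Of the marker genes of CD8+ T cells, 4 of 4 (Cd8a, Cd8b1, Cd3e and Cd3d) held strong pairs, 177 in all, and every one of the 177 was listed in both intron-deletion libraries. No strong pair touched the 4 markers of NK cells, the 4 of CD4+ and regulatory T cells or the 4 of erythroid cells, and Cd79a (8 pairs), Cd68 (3) and Tyrobp (4) were those with strong pairs among 6 B cell and 6 myeloid markers.

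IL-2 acts on T cells through a receptor whose alpha chain, CD25, is encoded by Il2ra, and signals through the transcription factor STAT5. Il2ra is itself a STAT5 target, and its promoter, introns and upstream flank form a super-enhancer, a dense cluster of enhancers with high H3K27ac. Enhancers act on promoters by coming close to them in the nucleus, so a pair of acetylated bins with many contacts often joins an enhancer to a promoter or to another enhancer. HiChIP counts depend on both the contact and the acetylation of the ends. In such bulk libraries fewer cells with a contact and fewer contacts per cell cannot be told apart.

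The gene that carries the deletions is described first, from the deposited coverage of its bins, a count of reads that is not scaled for depth. The bins below are ends of missing pairs, chosen through absence from the lists, so they are no check of the deletion. Unlisted ends were not particular to Il2ra: around Apobec3 on chromosome 15, 8 of 30 end bins were listed with IL-2 and 5 in control. In the intron deletion the bins at 11648001, 11649001, 11651001, 11652001, 11656001, 11660001 and 11663001 of chromosome 2, all in the 5' part of Il2ra, were listed in neither library, although each anchored strong pairs in the upstream deletion and WT. The bin at 11642001, which holds the Il2ra start, was listed, with 2177 reads with IL-2 and 1360 in control in the intron deletion, against 3619 (IL-2) and 2833 (control) in the upstream deletion, and 6028 (IL-2) and 3961 (control) in WT.

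Promoters that anchored several of the missing contacts are shown first, since those contacts converge on them. The 5 were chosen with the values known. Each sequence is the 250 bases before the RefSeq transcription start in GRCm38.p6, written along the gene's strand, which is plus for all 5. Capitals mark a match to the STAT binding motif TTCNNNGAA, read on both strands. The Apobec3 window lies at chr15:79892158-79892407 (12 pairs ended in its bin), Lad1 at chr1:135818348-135818597 (9 pairs), Batf3 at chr1:191098164-191098413 (7 pairs), Rbpj at chr5:53590096-53590345 (4 pairs) and Il2ra at chr2:11642542-11642791 (3 pairs).
Apobec3: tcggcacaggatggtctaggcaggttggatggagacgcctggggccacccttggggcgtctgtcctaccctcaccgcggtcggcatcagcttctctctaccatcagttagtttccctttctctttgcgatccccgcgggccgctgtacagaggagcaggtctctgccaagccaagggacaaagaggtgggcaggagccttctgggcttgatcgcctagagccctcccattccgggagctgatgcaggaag
Lad1: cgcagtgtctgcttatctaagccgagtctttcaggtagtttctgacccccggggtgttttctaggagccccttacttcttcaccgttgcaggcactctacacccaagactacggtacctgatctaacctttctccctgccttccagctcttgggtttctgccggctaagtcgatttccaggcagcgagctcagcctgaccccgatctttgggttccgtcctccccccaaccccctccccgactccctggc
Batf3: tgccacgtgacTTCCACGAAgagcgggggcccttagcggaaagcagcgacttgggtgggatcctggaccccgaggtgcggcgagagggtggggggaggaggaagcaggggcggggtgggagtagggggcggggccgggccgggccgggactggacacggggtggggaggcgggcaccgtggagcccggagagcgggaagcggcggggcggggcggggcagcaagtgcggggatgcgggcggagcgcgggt
Rbpj: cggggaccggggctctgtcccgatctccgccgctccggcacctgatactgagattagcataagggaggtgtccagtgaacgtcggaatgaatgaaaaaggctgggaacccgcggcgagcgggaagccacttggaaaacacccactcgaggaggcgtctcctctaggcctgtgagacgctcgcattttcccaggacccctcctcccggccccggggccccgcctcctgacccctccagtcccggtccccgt
Il2ra: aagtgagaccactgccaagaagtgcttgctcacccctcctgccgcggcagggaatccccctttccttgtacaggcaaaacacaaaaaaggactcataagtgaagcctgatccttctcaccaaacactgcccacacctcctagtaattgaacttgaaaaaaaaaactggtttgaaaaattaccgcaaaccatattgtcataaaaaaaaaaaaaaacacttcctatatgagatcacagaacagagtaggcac
Of these 5 windows, that of Batf3 held the STAT motif, once. Of 21263 promoters in the RefSeq table, 1399 (6.58%) held it in the same 250 bases. None of the 5 held the AP-1 motif TGANTCA, which was counted separately, overlaps included, and was found in 1304 promoters (6.13%). The start bins of Lta4h and Ostf1 were also ends of 4 missing pairs each, and their windows, like those of a further start of Apobec3 and of Rbpj, are not shown and held neither motif. A match is a run of letters and not evidence of binding.

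Many of the 495 pairs lay close together. Chained wherever their ends lay within 100 kb of each other, they formed 131 loci, of which 63 held 1 pair, 28 held 2, 14 held 3 and 26 held 4 or more. The 26 larger loci held 334 of the pairs, the first 3 held 158 (31.9%) and the first 10 held 252 (50.9%). Chromosome 15 carried 121 of them, 12.4% of its 972 strong pairs, against 4.29% on chromosome 5 (59 pairs), 3.63% on chromosome 1 (35), 2.75% on chromosome 2 (40) and 0 of 153 on chromosome X. Pairs of a locus share bins and reads, so they are not separate observations.

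**Figure D1:**
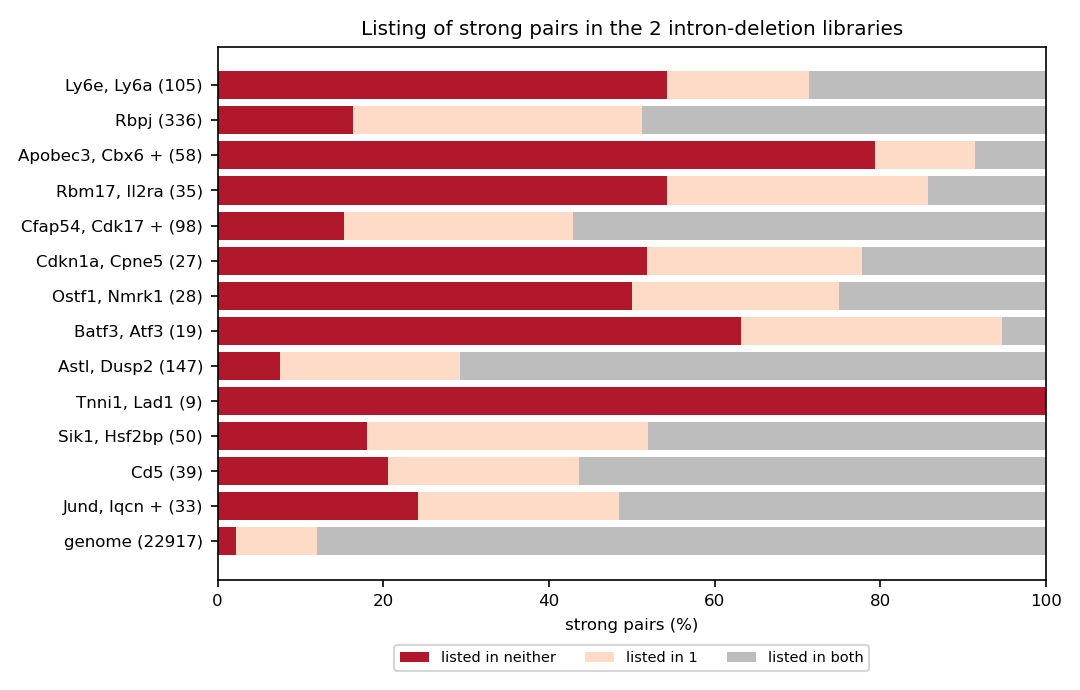
Share of strong pairs (x axis, %) that were listed in neither, 1 or both intron-deletion libraries, for 13 of the 14 loci with the most missing pairs and for the genome (last bar); numbers in brackets are strong pairs within each locus. All 9 strong pairs of Tnni1/Lad1 and 46 of 58 around Apobec3 were listed in neither, against 2.16% of the genome's strong pairs.

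Most of the missing pairs were of moderate strength. Their mean counts had a median of 39.0 and a highest value of 153, against a median of 49.8 for the 20159 strong pairs listed in both intron-deletion libraries. Of strong pairs with a mean of 35 to 40 contacts, 279 of 5562 (5.02%) were missing, of those from 50 to 70 contacts 59 of 5996 (0.984%), and of those with 100 or more 6 of 1517 (0.396%). Just inside the threshold lay 70 pairs with means from 35 up to 36, and just outside it 89 pairs of the same listing with means from 34 to 34.8. Over the 495 pairs, counts ran from 20 to 120 with IL-2 and 20 to 129 in control in the upstream deletion (medians 36 with IL-2 and 34 in control), and from 20 to 187 with IL-2 and 22 to 187 in control in WT (medians 50 with IL-2 and 41 in control).

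The lists stop at 20 contacts, so the level a missing pair would have had at the depth of the intron-deletion libraries was set beside that limit. The mean of the 4 other libraries, scaled to depth, gave 36.2 to 161 contacts (median 41.0) for the intron deletion with IL-2 and 25.6 to 114 (median 29.0) for its control. A count of 19, the highest that goes unlisted on number alone, is 0.464 of the scaled mean at the median with IL-2 (0.118 to 0.525) and 0.655 in control (0.167 to 0.742). These ratios are no bounds if the caller's peaks did not cover an end, or if it dropped pairs on more than the count. The missing status also refers to exact bins. For 287 pairs (58.0%) a pair with each end shifted by at most 1 bin was listed in an intron-deletion library, 277 with IL-2 and 210 in control, and 208 pairs had no such neighbour in either.

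The ends themselves were mostly still listed. Of the 495 pairs, 286 (57.8%, in 85 loci) had both ends listed with some other partner in an intron-deletion library, 156 (31.5%, in 64 loci) had 1 end listed and 53 (10.7%, in 12 loci) had none. The strongest pairs were among those with an unlisted end: the highest mean was 69.5 among pairs with both ends listed, 153 among those with 1 end and 138 among those with none. All 18 pairs with a mean of 70 contacts or more lacked at least 1 end. A listed neighbour pair was found for 213 of the 286 pairs with both ends listed, 72 of the 156 with 1 and 2 of the 53 with none.

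In the intron deletion, listed ends had lower coverage than ends of the strong pairs that stayed listed. The 495 pairs used 620 bins, of which 444 (71.6%) appeared in the IL-2 library of the intron deletion, 372 (60%) in its control and 171 (27.6%) in neither. For the 367 bins listed in all 6 libraries, depth-scaled coverage in the intron deletion had a median of 0.630 of the mean of the other 4 libraries with IL-2 (middle 50% of bins 0.508 to 0.766) and 0.641 in control (0.489 to 0.754). For the 13361 bins that anchor strong pairs listed in both intron-deletion libraries, the medians were 0.962 with IL-2 (0.837 to 1.10) and 0.958 in control (0.834 to 1.09). A ratio under 0.5 was found in 88 of the first bins with IL-2 (24.0%) and 99 in control (27%). In the second set it was found in 168 with IL-2 (1.26%) and 192 in control (1.44%). The sets were not made exclusive, so a bin with several partners can belong to both. Coverage of a bin counts the same reads as its contacts, so it is not independent of the rule.

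**Figure D2:**
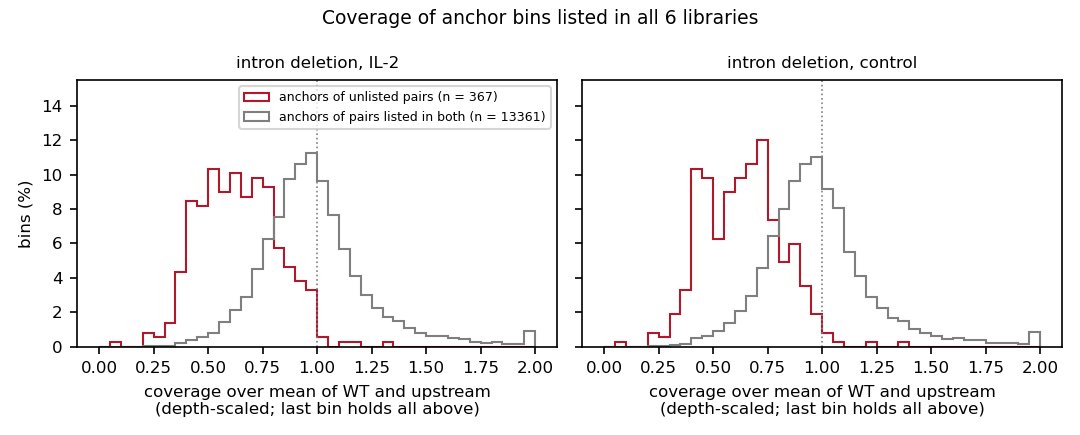
Depth-scaled coverage of anchor bins in the intron deletion divided by the mean of the upstream-deletion and WT libraries (x axis), as the share of bins (y axis, %), with IL-2 (left) and in control (right). Bins of the missing pairs (red, n = 367) have medians of 0.630 with IL-2 and 0.641 in control, and bins of strong pairs listed in both intron-deletion libraries (grey, n = 13361) medians of 0.962 with IL-2 and 0.958 in control. A bin can belong to both sets.

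Genes at the ends were then counted. A gene start lay at an end of 111 missing pairs (22.4%), against 6677 of 20159 listed pairs (33.1%), and at both ends of 4 (0.808%) against 817 (4.05%). No protein-coding gene overlapped either end of 159 missing pairs (32.1%), against 3251 (16.1%). The shares count pairs and not loci: 57 of the 495 lay at Ly6e/Ly6a and 55 at Rbpj, where many end bins overlapped no protein-coding gene. Shares by locus were not computed. The median length was 10 kb against 11 kb, and 12 (2.42%) against 330 (1.64%) spanned 100 kb or more. In all, 176 of the 3416 genes with a strong pair at their body or start (5.15%) had a missing one.

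The Il2ra locus, the site of both deletions, was the fourth by number, with 19 pairs of its 35 strong pairs. Of the others, 5 were listed in both intron-deletion libraries and 11 in 1. The strongest joined the bins at 11644001 and 11652001 of chromosome 2, 8 kb apart inside Il2ra. It had 57 contacts with IL-2 and 70 in control in the upstream deletion, and 114 with IL-2 and 65 in control in WT. The next, from 11644001 to 11651001, had 55 (IL-2) and 34 (control) contacts in the upstream deletion and 113 (IL-2) and 67 (control) in WT. WT with IL-2 was the highest library for both.

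The start bin of Il2ra at 11642001 was an end of missing pairs with 11648001, 11651001 and 11652001, whose means over the 4 libraries were 45, 38.75 and 49.25. From the neighbouring bin 11643001, missing contacts led to 11636001, upstream of the gene (mean 42.5), and to 11648001 (56.75), 11651001 (46.25) and 11652001 (52.0). From 11644001 they led to 11607001 (40.25), 11649001 (40.75), 11656001 (44.0), 11660001 (37.25) and 11663001 (40.75), beside the 2 described first. The last 5 ran from 11602001, in the splicing factor gene Rbm17, to 11637001 (38.0), from 11637001 to 11647001 (37.0), from 11645001 to 11651001 (44.0) and 11652001 (38.25), and from 11647001 to 11652001 (41.25). Of the 19 pairs, 15 had 1 end listed in an intron-deletion library and 4 had both. The bin at 11644001, the end of 7 pairs, had 11 listed partners with IL-2 and 4 in control in the intron deletion, against 27 (IL-2) and 17 (control) in the upstream deletion, and 51 (IL-2) and 41 (control) in WT. Its reads numbered 2368 (IL-2) and 1469 (control) in the intron deletion, against 4967 (IL-2) and 3829 (control) in the upstream deletion and 9434 (IL-2) and 6032 (control) in WT. Here the intron deletion had the fewest partners and reads and WT the most, in libraries of unequal depth. The deleted coordinates are not given, so a deleted end and an end without contacts cannot be told apart here. Of 8 annotated genes of the region, 4 held strong pairs, 176 in all, and the 19 missing ones touched Il2ra (18) or Rbm17 (1). All 136 strong pairs of Prkcq, which encodes protein kinase C theta, and both of Pfkfb3, a glycolytic regulator, were listed in each intron-deletion library.

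Larger sets lay on other chromosomes than Il2ra, the first at Ly6e and Ly6a on chromosome 15 with 57 pairs. Both genes encode small proteins anchored to the cell membrane, and Ly6a is the stem cell antigen Sca-1. Within the 79 kb of this locus, 72 pairs with IL-2 and 42 in control were listed in the intron deletion, against 220 (IL-2) and 231 (control) in the upstream deletion and 247 (IL-2) and 236 (control) in WT. The strongest missing pair, 24 kb long from 74934001 to 74958001 in Ly6e, had 67 contacts with IL-2 and 68 in control in the upstream deletion, and 69 (IL-2) and 74 (control) in WT. All 4 values lie close together. The intergenic bin at 74934001 was an end of 15 pairs, more than any other bin. It had 1320 reads with IL-2 and 962 in control in the intron deletion, against 4723 (IL-2) and 4957 (control) in the upstream deletion and 6779 (IL-2) and 6065 (control) in WT. Its listed partners numbered 3 (IL-2) and 3 (control) in the intron deletion, against 30 (IL-2) and 27 (control) in the upstream deletion and 35 (IL-2) and 39 (control) in WT. Both bins were listed in each intron-deletion library. Lower coverage was not seen along the whole locus. The bin at 74957001 in Ly6e had 4114 reads with IL-2 and 2921 in control in the intron deletion, against 3378 (IL-2) and 3419 (control) in the upstream deletion and 2500 (IL-2) and 2308 (control) in WT. At that bin the intron deletion had more reads than WT in both treatments.

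**Figure D3:**
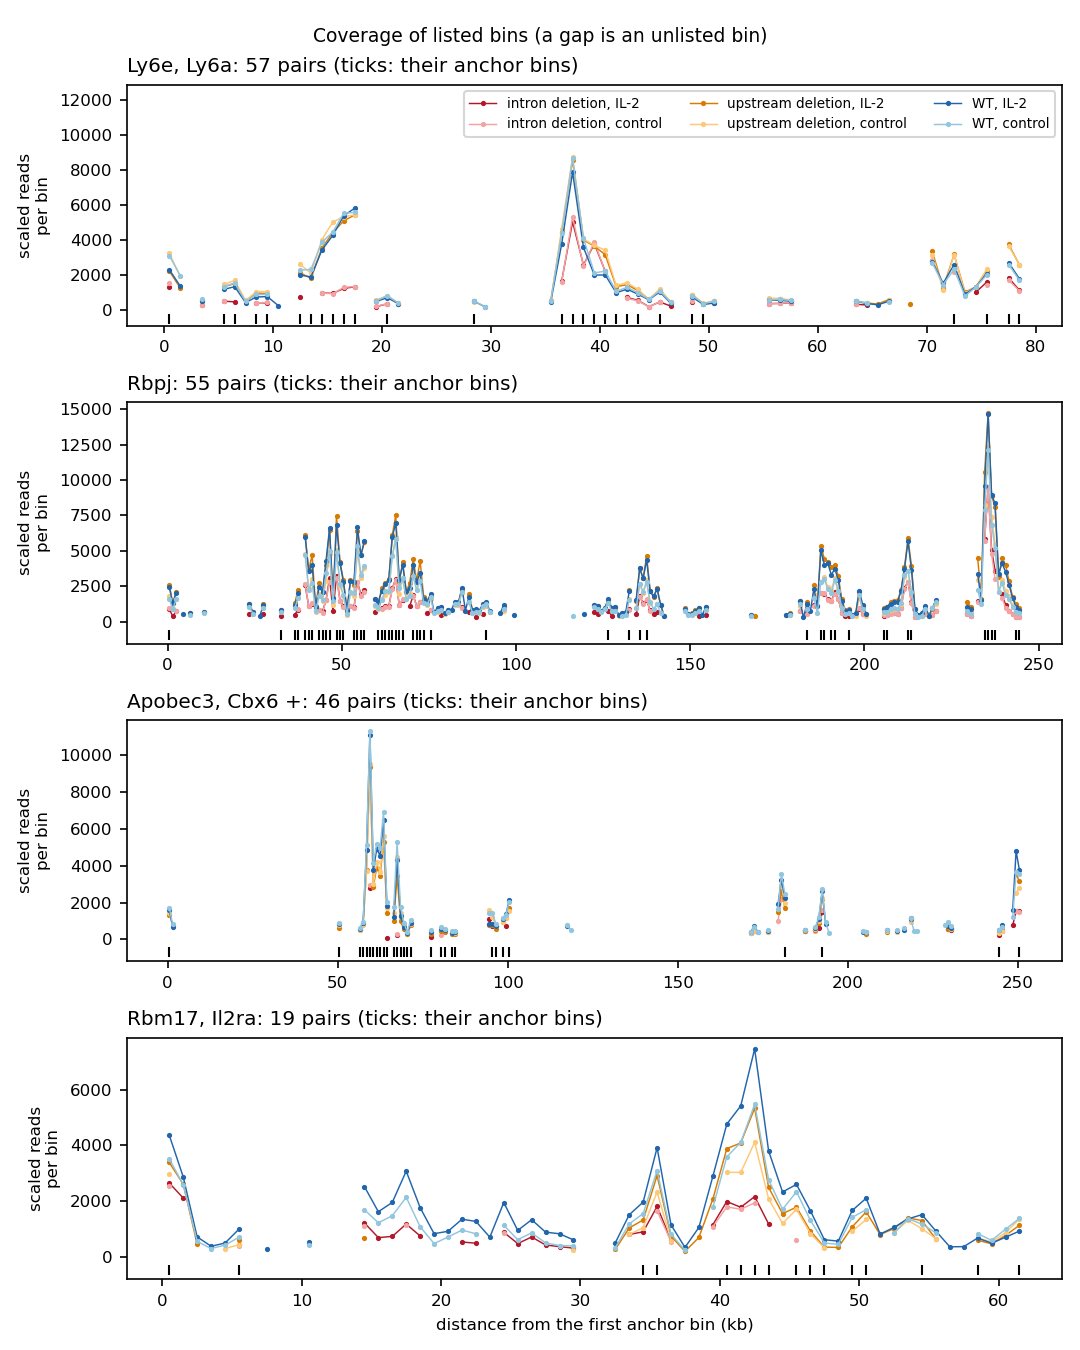
Depth-scaled reads of listed 1 kb bins (y axis) by distance from the first anchor bin (x axis, kb) in the 4 loci with the most missing pairs; lines are the 6 libraries, gaps are unlisted bins and ticks mark ends of missing pairs. The 2 intron-deletion libraries run below the others over most of the 4 loci and leave most of the Apobec3 stretch empty. At Ly6e, near 39 kb, they lie about level with the upstream deletion and above WT.

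The second set, 55 of 336 strong pairs, lay before and in Rbpj on chromosome 5. RBPJ is the DNA-binding protein through which Notch receptors regulate genes. Of the other strong pairs, 164 were listed in both intron-deletion libraries and 117 in 1, and 51 of the 55 missing pairs had both ends listed. The strongest, from 53400001 to 53409001 before the gene, had 51 contacts with IL-2 and 40 in control in the upstream deletion, and 93 (IL-2) and 82 (control) in WT. The Rbpj pairs reached far. Of the 12 missing pairs that spanned 100 kb or more, 8 were at Rbpj, up to 196 kb from 53396001 to 53592001, with 42 (IL-2) and 29 (control) contacts in the upstream deletion and 50 (IL-2) and 28 (control) in WT. The bin at 53592001, 2 bins past the start, had 16 partners with IL-2 and 5 in control in the intron deletion, against 61 (IL-2) and 33 (control) in the upstream deletion and 97 (IL-2) and 45 (control) in WT. IL-2 libraries had more partners than controls in each genotype. The other 4 long pairs were at Cdk17/Elk3, Sik1/Hsf2bp, Bhlhe40 and Runx2, the last being the longest at 277 kb.

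The third set lay around Apobec3, a cytidine deaminase that restricts retroviruses, and held 46 of 58 strong pairs. It contained 13 of the 18 missing pairs with a mean of 70 contacts or more. Its leading pair, from 79894001 to 79900001 of chromosome 15, in Apobec3, had 120 contacts with IL-2 and 129 in control in the upstream deletion, and 185 (IL-2) and 179 (control) in WT. The next, from 79895001 to 79900001, had 95 (IL-2) and 103 (control) in the upstream deletion, and 187 (IL-2) and 187 (control) in WT. All libraries of WT exceeded those of the upstream deletion for both pairs. Much of the gene was unlisted in the intron deletion: 21 of the 46 pairs had no listed end and 22 had 1. Of the 30 end bins, 8 were listed with IL-2 and 5 in control. The bin of the first annotated start, 79892001, kept 3019 reads with IL-2 and 2231 in control in the intron deletion, against 8712 (IL-2) and 8850 (control) in the upstream deletion and 14067 (IL-2) and 12461 (control) in WT. The bin at 79900001 kept 283 (IL-2) and 200 (control) reads in the intron deletion, against 3223 (IL-2) and 4145 (control) in the upstream deletion and 5440 (IL-2) and 5842 (control) in WT. The bin at 79896001, with 8218 (IL-2) and 7649 (control) reads in WT, was listed in neither intron-deletion library. Other ends of this locus lay in Cbx6 and Cbx7, chromobox proteins of Polycomb repression, in Pdgfb, a growth factor gene, in the ribosomal protein gene Rpl3 and in Npcd.

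Several loci with 12 to 15 missing pairs held cell cycle and transcription factor genes. Around Cdkn1a, which encodes the cell cycle inhibitor p21, and Cpne5, 14 of 27 strong pairs were missing. The leading pair joined 29066001 to 29094001 of chromosome 17, in Cdkn1a, with 47 contacts with IL-2 and 56 in control in the upstream deletion and 72 (IL-2) and 64 (control) in WT. At Ostf1, an adaptor protein first described in osteoclasts, and Nmrk1, a kinase of NAD synthesis, 14 of 28 were missing. There the leading pair joined 18619001 to 18631001 on chromosome 19, with 46 (IL-2) and 69 (control) contacts in the upstream deletion and 90 (IL-2) and 81 (control) in WT. At Batf3 and Atf3, transcription factors of the bZIP family, 12 of 19 were missing and 1 was listed in both intron-deletion libraries. The bin of the Batf3 start was an end of 7 of these pairs, up to a mean of 46.5 with the bin at 191123001 of chromosome 1. It kept 1668 reads with IL-2 and 1198 in control in the intron deletion, against 3790 (IL-2) and 2675 (control) in the upstream deletion and 6101 (IL-2) and 4034 (control) in WT. Over 413 kb at Cfap54, Cdk17, Elk3 and Lta4h on chromosome 10, 15 of 98 were missing, led by a pair of 9 kb that ended at the start of Lta4h, an enzyme of leukotriene B4 synthesis (mean 57.25).

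In some loci nothing was listed in the intron deletion at all. This was so for 9 loci with 28 pairs, at Tnni1/Lad1, Camk2b, near Dhx40, Mex3c, Celsr1, Pik3c3, St6galnac5, Mxi1 and Trim12a. The loci of 1 pair among them, and the bin at 74957001 in Ly6e, are named for values already seen. At Tnni1, a muscle troponin, and Lad1, a basement membrane protein, all 9 strong pairs met in the bin of the Lad1 start shown above. The strongest, from 135813001 to 135818001 of chromosome 1, had 73 contacts with IL-2 and 65 in control in the upstream deletion, and 109 (IL-2) and 135 (control) in WT. That start bin had 3493 reads with IL-2 and 3562 in control in the upstream deletion, and 6743 (IL-2) and 6290 (control) in WT. At Camk2b, a calcium and calmodulin dependent kinase, all 4 strong pairs lay in the gene within 9 kb. The strongest, from 6000001 to 6006001 on chromosome 11, had 92 (IL-2) and 112 (control) contacts in the upstream deletion, and 107 (IL-2) and 132 (control) in WT, the fourth highest mean of all missing pairs (110.75). Near Dhx40 the leading pair, from 86815001 to 86823001 of chromosome 11, had 30 (IL-2) and 53 (control) contacts in the upstream deletion and 62 (IL-2) and 96 (control) in WT. In 34 loci, 9 of them with at least 2 pairs, every strong pair within the span of the locus was missing. Each span ran between the outermost ends of its own missing pairs. A short span leaves room for few other pairs, so this count is partly set by how the spans were drawn.

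In others nearly every end stayed listed, and the missing pairs stood among many that were listed. In 34 loci all ends were listed in both intron-deletion libraries. At Dusp2, a phosphatase of MAP kinases, and Astl 11 of 147 were missing, and all 11 had both ends listed. At Satb1, an organiser of T cell chromatin, 5 of 100 were missing, and at Castor1 and Lif, the second of which encodes a cytokine, 4 of 30. At Rnaseh2a, Hook2, Best2 and Tnpo2 it was 4 of 164, of which 3 had both ends listed. The highest means of the missing pairs at these loci lay between 43.5 (Astl/Dusp2) and 50.75 (Castor1/Lif). Loci with nothing listed in the intron deletion had highest means both below this range, as at Celsr1, and above it, as at Camk2b. Pairs listed in the intron deletion alone were counted in the spans of the loci. The spans were chosen for missing pairs and no genome-wide share stands beside the count, so it is not read as low. Within the spans of the 131 loci, 72 pairs in 27 loci were listed in an intron-deletion library and in none of the other 4, and 4 of these in both intron-deletion libraries.

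**Figure D4:**
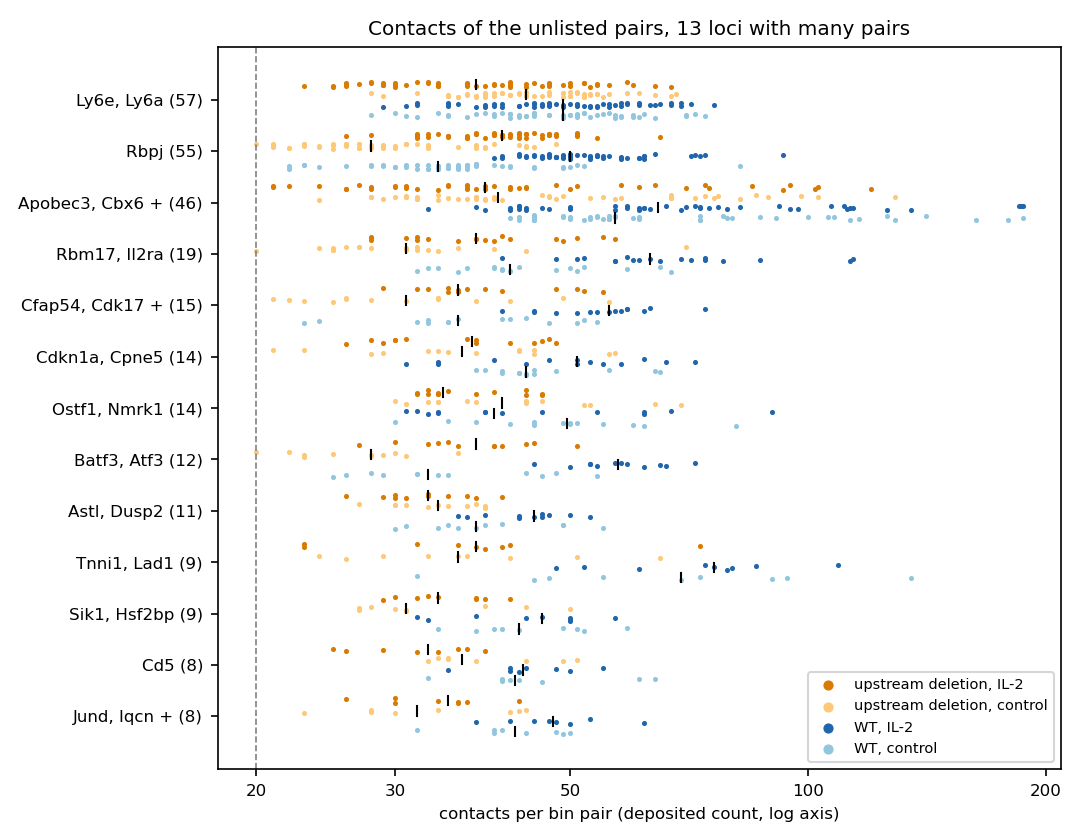
Deposited contacts of each missing pair (x axis, log scale) in the 4 libraries of the upstream deletion and WT, for 13 of the 14 loci with the most pairs (y axis, pairs in brackets); each point is a pair, black strokes are medians and the dashed line is the listing limit of 20. At Tnni1/Lad1 the medians are 38 (IL-2) and 36 (control) in the upstream deletion and 76 (IL-2) and 69 (control) in WT.

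Further loci with 4 or more pairs were Sik1/Hsf2bp (9 pairs of 50), Cd5, an inhibitory receptor of T cells (8 of 39), Jund/Iqcn/Mast3/Il12rb1, among them an AP-1 subunit and a chain of the IL-12 receptor (8 of 33), Pip4k2b/Lasp1 (5 of 38), A630001G21Rik (4 of 10), Septin9 (4 of 32), Tg/Sla, of which Sla encodes an adaptor that dampens T cell receptor signalling (4 of 57), a stretch whose middle bin lies 277711 bases from Satb1 (4 of 15), the transcription factor gene Bhlhe40 (4 of 25) and Tpm4/Rab8a (4 of 10). Loci with 3 pairs were Dock10, Mdm4, Dnajb12/Ddit4, Slfn8, Tbx21, Tmprss6/C1qtnf6/Il2rb/Cyth4, a stretch near Ift57, Runx2, Mex3c, Slc3a2, Ccdc9/Bbc3, Eed, C2cd3/Ucp2 and Dusp4. At Slc3a2, the heavy chain of the CD98 amino acid transporter, the leading pair reached a mean of 61.75, the highest of these 14 loci.

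Loci with 2 pairs were Supt4a/Tspoap1, Arf6, Serpinb6b/Serpinb9, Pebp4/Egr3, Il7r, Mief1, Celsr1, Socs1, Ccdc50, Pik3c3, Ahnak, Itgav, Prrg4, Rbm39/Phf20, St6galnac5, Laptm5, Sytl1/Tmem222, Sdf4/Tnfrsf4, Vps37b/Abcb9, Plekha2, Tti2/Mak16, Babam1/Ankle1 and stretches near Os9, Pim1, Ccnd2, Emsy, Tomm20 and Hemk1. Of the 63 single pairs, 55 had a gene at an end, the highest mean was 62.8 and the median 37.0. Both ends were listed in an intron-deletion library for 32 of them, 1 end for 29 and none for 2.

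The missing pairs were then counted at known T cell genes. Of 25 IL-2 and STAT5 targets, 20 held strong pairs and 6 a missing one (Il2ra 18 pairs, Cdkn1a 13, Lif 2, and Socs1, Il2rb and Tnfrsf4 1 each), 36 of 858 pairs in all, of which 31 came from Il2ra and Cdkn1a. Of 27 T cell receptor and identity genes, 24 held strong pairs and 5 a missing one (Cd5 4, Satb1 4, Il7r 2 and Zap70 1 among them), 13 of 1026 pairs. Of 22 activation and cytotoxic genes, 12 held strong pairs, and 3 of Tbx21, the transcription factor T-bet, and 1 of Nkg7, a cytotoxic granule protein, were missing, 4 of 166 pairs. At Socs1, a feedback inhibitor of IL-2 signalling, 34 of 40 strong pairs were listed in both intron-deletion libraries, and at Il2rb, which encodes another chain of the receptor for IL-2, 87 of 102. Over all strong pairs it was 20159 of 22917, so the share listed in both at Socs1 and Il2rb was not above that of strong pairs in general. At Il2ra it was 4 of 33 and at Cdkn1a 8 of 26. These lists overlap, as Il2ra stands in 2 of them. They are read beside the 2.16% of all strong pairs that were missing, and the 5.15% of genes with a strong pair that had a missing one. The pairs of the IL-2 and STAT5 targets lay above the first share, mostly through Il2ra and Cdkn1a, and those of the T cell receptor and identity genes below it.

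The IL-2 response of the missing pairs in the upstream deletion and WT was compared next. The choice of pairs did not use this contrast, but it did use these counts: a pair had to be listed in all 4 libraries and reach the mean of 35 over them, so pairs low in 1 arm were left out beforehand. The calls are therefore given as a description beside those of all strong pairs, which met the same limits. The contrast was fitted with edgeR's quasi-likelihood test over all 39676 pairs listed in the 4 libraries, with Benjamini-Hochberg adjustment. Of the 495 pairs, 26 were higher with IL-2 (5.25%) and 12 lower (2.42%). Over all pairs tested, 3.52% were higher and 1.53% lower, and over all strong pairs 5.79% and 2.23%, so the shares of the missing pairs lie near those of strong pairs. Their median change was log2 −0.03, against 0.02 for strong pairs. The design has 1 residual degree of freedom and a common dispersion of 9.77e-05, so the p-values rest almost wholly on counting error. DESeq2 called 0 of the 495, with 8 at an unadjusted p under 0.05 against 129 in edgeR. It gave no adjusted p-value to any of the 20 pairs named below by size of change. Those pairs could therefore not be called, and the 0 is no test result for them. With 1 library left out, the model held treatment alone and 1 arm held a single library, so the median change is given and no calls. It was log2 −0.09 without the WT library with IL-2 and 0.06 without the WT control. Without the upstream-deletion library with IL-2 it was 0.05, and without the upstream-deletion control −0.04.

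The largest rise was before Rbpj. From 53492001 to 53542001 of chromosome 5, before the gene, contacts were 48 with IL-2 and 20 in control in the upstream deletion and 73 (IL-2) and 24 (control) in WT (log2 1.30, SE 0.24, edgeR adjusted p = 1.93e-05). The 7 rises at this locus also included 53542001 to 53592001 in Rbpj, with 41 (IL-2) and 26 (control) contacts in the upstream deletion and 74 (IL-2) and 22 (control) in WT (1.10, SE 0.24, edgeR adjusted p = 4.94e-04). In both pairs each IL-2 library was above each control. Near Emsy on chromosome 7, the pairs from 98555001 and 98563001 changed by 1.18 and 1.17. At Lif, a STAT5 target, 2 pairs changed by 1.0 and 0.96, the first with 60 (IL-2) and 26 (control) contacts in the upstream deletion and 80 (IL-2) and 37 (control) in WT. Each IL-2 count of this pair was above each control. Near Hemk1 the change was 0.99, and at the stretch whose middle bin lies 277711 bases from Satb1 it was 0.95. From 53420001 to 53542001, also before Rbpj, it was 0.97. Batf3/Atf3 had 4 rises and Castor1/Lif 3. At Il2ra 1 of 19 pairs passed, from 11644001 to 11651001 (0.57, SE 0.18, edgeR adjusted p = 0.0397), and the median of the 19 was 0.36.

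The largest fall was at Fam53b, from 132792001 to 132798001 on chromosome 7, with 23 contacts with IL-2 and 42 in control in the upstream deletion and 25 (IL-2) and 52 (control) in WT (−1.11, SE 0.25, edgeR adjusted p = 6.54e-04). At Bbc3, which encodes the death protein PUMA, a pair had 28 (IL-2) and 48 (control) contacts in the upstream deletion and 34 (IL-2) and 58 (control) in WT (−0.92, SE 0.23, edgeR adjusted p = 0.00346). Every IL-2 value of these pairs was below every control value. The others of the largest 10 were near Dhx40 (−0.86), at Camk2b (−0.85), Zap70, a kinase of the T cell receptor (−0.84), near Laptm5 (−0.82), Apobec3 (−0.80), Cd5 (−0.78), Cdkn1a (−0.77) and before Ly6e (−0.71). The 12 falls lay between −1.11 and −0.44 and came from 11 loci, and the 26 rises from 12 loci.

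**Figure D5:**
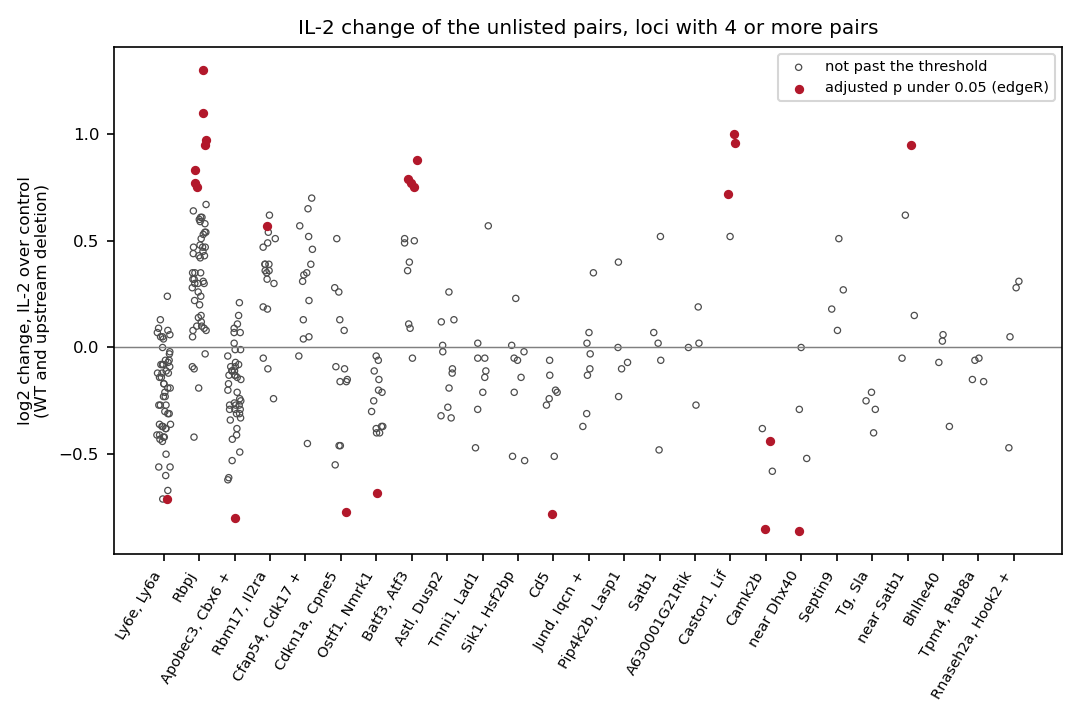
Log2 change of each missing pair with IL-2 over control (y axis) in the upstream deletion and WT, by locus for 25 of the 26 loci with 4 or more pairs (x axis); filled red points passed edgeR at an adjusted p under 0.05 and open points did not. Filled points above 0 gather at Rbpj (7), Batf3/Atf3 (4) and Castor1/Lif (3), and Camk2b has 2 below 0.

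Sums over the missing pairs of a locus gave the change in each genotype. At Rbpj the depth-scaled sum with IL-2 was 1.34 times that in control in the upstream deletion (95% counting interval 1.25 to 1.42) and 1.28 times in WT (1.21 to 1.35). At Batf3/Atf3 the ratios were 1.35 (1.17 to 1.57) in the upstream deletion and 1.38 (1.22 to 1.56) in WT, and at Castor1/Lif 1.88 (1.47 to 2.41) in the upstream deletion and 1.68 (1.35 to 2.10) in WT. Those at Il2ra were 1.17 (1.05 to 1.31) in the upstream deletion and 1.31 (1.20 to 1.43) in WT. Both intervals of these 4 loci lay above 1, as they did at other loci, such as Cfap54/Cdk17/Elk3/Lta4h. Near Emsy the ratios were 2.45 in the upstream deletion and 2.13 in WT. Sums below the control were found at Camk2b, with 0.696 (0.586 to 0.826) in the upstream deletion and 0.714 (0.605 to 0.842) in WT, at Ly6e/Ly6a, with 0.841 (0.794 to 0.890) in the upstream deletion and 0.888 (0.842 to 0.936) in WT, around Apobec3, with 0.888 (0.838 to 0.942) in the upstream deletion and 0.877 (0.837 to 0.919) in WT, and at Ostf1/Nmrk1, with 0.827 (0.735 to 0.931) in the upstream deletion and 0.827 (0.742 to 0.921) in WT. At these 4 loci both intervals lay below 1, as they did at other loci, such as Cd5. The intervals cover counting error between single libraries and no spread between replicates.

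The upstream deletion was compared with WT in the same fit, again on counts that the choice of pairs used, with an unscaled mean in which the deeper WT libraries weigh more. Of the 495 pairs, 2 were higher (0.404%) and 8 lower (1.62%) in the upstream deletion, against 0.116% and 0.111% of all pairs tested and 0.183% and 0.192% of strong pairs. The 8 lower pairs came from 4 loci, so their share counts few separate places. The median was log2 −0.09, against −0.02 for strong pairs. DESeq2 called 0 of the 495, with 6 at an unadjusted p under 0.05 against 89 in edgeR. With 1 library left out, the model held genotype alone and 1 arm held a single library. The median was then between log2 −0.12 (without the WT control) and −0.07 (without the WT library with IL-2).

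The largest fall joined 58200001 to 58215001 on chromosome 11, at Igtp and Irgm2, interferon-induced GTPases. It had 27 contacts with IL-2 and 24 in control in the upstream deletion, and 80 (IL-2) and 99 (control) in WT (−1.54, SE 0.21, edgeR adjusted p = 5.63e-09). Both of its ends were listed in an intron-deletion library. At Lad1, the pair from 135808001 to 135818001 had 42 (IL-2) and 33 (control) contacts in the upstream deletion and 86 (IL-2) and 90 (control) in WT (−0.96, SE 0.19, edgeR adjusted p = 0.00213), and that from 135809001 changed by −0.84. At Apobec3, 4 pairs fell by 0.52 to 0.90 on the log2 scale, the largest from 79890001 to 79895001 of chromosome 15 with 39 (IL-2) and 31 (control) contacts in the upstream deletion and 79 (IL-2) and 79 (control) in WT. For these pairs WT stood apart from the upstream deletion in both treatments. At Il2ra the pair from 11644001 to 11651001 changed by −0.73 (SE 0.18, edgeR adjusted p = 0.0426). The higher pairs were at Asb8 and Ccdc184 (1.24, with 39 (IL-2) and 54 (control) contacts in the upstream deletion and 20 (IL-2) and 27 (control) in WT) and in the Satb1 locus, from 51899001 to 51906001 of chromosome 17 (0.96, with 56 (IL-2) and 37 (control) contacts in the upstream deletion and 36 (IL-2) and 22 (control) in WT).

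As sums over a locus, the upstream deletion was lower than WT at Tnni1/Lad1, at 0.665 (0.582 to 0.758) of WT with IL-2 and 0.614 (0.537 to 0.701) in control, near Dhx40, at 0.653 (0.511 to 0.830) with IL-2 and 0.584 (0.469 to 0.725) in control, around Apobec3, at 0.787 (0.746 to 0.831) with IL-2 and 0.778 (0.738 to 0.819) in control, and at Il2ra, at 0.734 (0.670 to 0.804) with IL-2 and 0.819 (0.737 to 0.910) in control. Other loci also had both intervals below 1, such as Batf3/Atf3, at 0.837 (0.742 to 0.943) with IL-2 and 0.855 (0.738 to 0.989) in control. At Satb1 the upstream deletion was higher, at 1.41 (1.16 to 1.71) with IL-2 and 1.65 (1.34 to 2.04) in control. At Ly6e/Ly6a and Rbpj, the loci with the most missing pairs, the ratios were 1.01 (0.957 to 1.07) with IL-2 and 1.07 (1.01 to 1.13) in control at Ly6e/Ly6a, and at Rbpj 0.986 (0.933 to 1.04) with IL-2 and 0.943 (0.882 to 1.01) in control. With IL-2 both of these intervals include 1.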

How the data were processed

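Of 25 samples the 6 H3K27ac HiChIP libraries were used, and the 19 others were not. Per the submitters' processing notes, CASAVA, Bowtie2 2.2.6 and HiC-Pro were run, with mm10 (GRCm38) as the build. The authors deposited loop tables in the layout of FitHiChIP with 1 kb bins, raw contact counts per pair and coverage counts per bin, per the file headers and values. No label or header gives the caller's version, peak set or threshold. No listed pair had under 20 contacts or lay closer than 5 kb, and every end carried the peak flag.

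Pairs were matched on exact bins. Members, gene lists and tests were chosen with earlier results of these data known. Genes and promoter sequences come from RefSeq GRCm38.p6. All genes of loci with at least 2 missing pairs, of the 20 strongest and up to 10 pairs per test and direction are named. Counts were tested with edgeR 4.0.16 (R 4.3.3; TMM, genotype plus treatment, two-sided, adjusted p threshold 0.05) and with DESeq2 1.42.0. Depth scales came from TMM over pairs listed in all 6 libraries. Ratios of sums carry exact 95% counting intervals. P-values measure no spread between like libraries, since each genotype and treatment has 1. The results of 1 locus are not reported here.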

Additional observations from a re-analysis of the deposited data

Results flagged for a closer look

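At 5 of the 26 loci with 4 or more missing pairs the summed contacts of the missing pairs moved in opposite directions with IL-2 in the 2 genotypes, and in none was the difference tested. Loci with fewer pairs are not considered here, and some of them also moved in opposite directions. At Bhlhe40 the depth-scaled sum with IL-2 was 0.778 of control in the upstream deletion and 1.14 of control in WT, a log2 difference of −0.55 (upstream deletion minus WT). At A630001G21Rik these ratios were 1.13 in the upstream deletion and 0.902 in WT (0.33), at Tpm4/Rab8a 1.01 in the upstream deletion and 0.863 in WT (0.23), at Satb1 0.942 in the upstream deletion and 1.11 in WT (−0.23) and at Pip4k2b/Lasp1 0.969 in the upstream deletion and 1.01 in WT (−0.06). Each sum is from 1 library per genotype and treatment over 4 or 5 pairs. The counting interval of 9 of these 10 ratios includes 1, the exception being Bhlhe40 in the upstream deletion (0.618 to 0.976).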

How the results depend on the processing

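The number of missing pairs was 495 and depended on the threshold. It was 1155 with a mean of 30 or more contacts, 119 with 45 or more, 208 when each end could shift by 1 bin in the intron deletion, 583 when the intron-deletion library with IL-2 was taken alone, and 335 to 789 when 1 of the 4 other libraries was left out, the highest without the upstream-deletion control. With depth-scaled means it was 477. All 495 had a scaled expectation of at least 20 in both intron-deletion libraries, the lowest being 36.2 with IL-2 and 25.6 in control. The threshold on the mean count already ensured this, so the setting could not lower the number and is no check of it.

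For IL-2 against control, the 26 higher and 12 lower missing pairs became 13 and 4 with treatment alone in the model and 0 and 0 in DESeq2. The 20 named by size of change had no adjusted p-value in DESeq2 and could not be called there. Among strong pairs alone 19 were lower in edgeR. Over all pairs, the 1396 higher and 609 lower became 835 and 248 with treatment alone, 7 and 0 in DESeq2, and 109 to 469 and 6 to 166 without 1 library. For the upstream deletion against WT, the 2 higher and 8 lower missing pairs became 0 and 0 with genotype alone and 0 and 0 in DESeq2. Among strong pairs alone 4 were higher. Over all pairs, the 46 higher and 44 lower became 2 and 0 with genotype alone and 2 and 0 in DESeq2, and 77 were higher among strong pairs alone. The cause was not tested. Without 1 library, the model held treatment or genotype alone, and an arm with a lone library is assumed to vary like the others. A change in those fits can therefore come from the library or from the model. No named pair changed direction, and DESeq2 size factors in edgeR changed no call of a named pair. The median IL-2 change of the missing pairs (log2 −0.03) was 0.05 without the upstream-deletion library with IL-2 and 0.06 without the WT control, and without the upstream-deletion control fewer pairs were called higher (5) than lower (6). No paired analysis was possible because the labels give no replicate numbers, the names of the tables all carry the number 2, and each genotype and treatment has 1 library. Depth limits which pairs are listed: a missing pair may have held up to 19 contacts if it went unlisted on number alone.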
